A study of Mus musculus with 6 samples.

Results

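Phospholipase C genes were followed across the nuclei of mouse cortex in 9 of the 32285 genes in the matrices: Plcg1, Plcg2, Plcb1, Plcb2, Plcb3, Plcb4, Plce1, Plcl1 and Plcl2. They were chosen by name, as Plcg2, the gene altered in the study's mice, and its relatives. The rule uses names and no measured value, though the genes were proposed with earlier results of these data known. Another 9 isoforms in the matrices served as a comparison list. The data were single-nucleus 3' RNA counts from 6 libraries of NeuN-negative cortical nuclei of 7.5-month-old mice, with 2 libraries (replicates 2 and 3) in each of 3 groups: 5xFAD, 5xFAD-M28L and 5xFAD-P522R. All 3 groups carry 5xFAD, a transgenic amyloid model whose human transgenes, with familial Alzheimer's disease mutations, are driven by the neuronal Thy1 promoter, and no group lacks it. M28L and P522R are amino acid changes in PLCG2. In human genetics the first has been linked to a higher and the second to a lower risk of Alzheimer's disease. Whether the alleles were on 1 or both chromosomes is not given in the sources used here. Each library was loaded to hold equal numbers of nuclei from male and female mice. Nothing in the labels states that replicates 2 and 3 came from separate animals. The p-values therefore refer to the spread from library to library, which may be technical.

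Phospholipases C cut the membrane lipid phosphatidylinositol bisphosphate (PIP2) into inositol trisphosphate (IP3), which opens calcium channels of internal stores, and diacylglycerol, which recruits protein kinase C and related proteins. Isoforms differ in what switches them on: the gamma enzymes by tyrosine kinases below immune and growth factor receptors, the beta enzymes by Gq and other heterotrimeric G proteins, and the epsilon enzyme by Ras-family GTPases. The PLC-like proteins encoded by Plcl1 and Plcl2 keep the domain plan but lack catalytic activity. In the brain, PLCG2 is known as the microglial enzyme that relays signals of TREM2 and Fc receptors.

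The M28L position of Plcg2 is shown first, because it defines a group. Plcg2 lies on chr8:117498291-117635142, plus strand (GRCm38, the build mm10 named in the submitters' processing notes). Its transcript ENSMUST00000081232 has 33 exons and encodes 1265 residues. The M28L codon, chr8:117504262-117504264, lies in exon 2. The line gives the reference coding sequence, 5′ to 3′, with the methionine codon in capitals. The base changes made in the mice are not given in the sources used here. The 3' counts do not read the altered codons, so they do not check the genotype labels.
Plcg2 around M28L: ttagggacggtgATGaccgtgttcaac

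Plcg2 and Plcb2 had their highest level in the same class of nuclei, so the 250 bases before their starts are set side by side (RefSeq, GRCm38.p6). The Plcg2 window is chr8:117498025-117498274 on the plus strand, and that of Plcb2 is chr2:118728439-118728688 on the minus strand. Capitals mark GGAAGT, a core bound by ETS factors such as PU.1, on either strand. Of all 32851 promoter windows of this length, 19.7% hold that motif.
Plcg2 promoter: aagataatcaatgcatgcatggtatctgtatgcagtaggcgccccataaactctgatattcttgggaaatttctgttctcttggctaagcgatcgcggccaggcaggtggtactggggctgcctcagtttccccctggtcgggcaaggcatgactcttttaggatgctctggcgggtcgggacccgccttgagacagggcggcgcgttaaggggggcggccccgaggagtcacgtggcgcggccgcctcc
Plcb2 promoter: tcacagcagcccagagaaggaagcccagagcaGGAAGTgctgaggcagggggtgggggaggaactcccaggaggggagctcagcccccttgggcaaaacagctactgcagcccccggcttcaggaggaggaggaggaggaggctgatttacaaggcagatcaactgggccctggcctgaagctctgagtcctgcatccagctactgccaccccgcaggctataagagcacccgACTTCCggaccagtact

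The Plcb2 window holds the motif at 218 and 17 bases before the start. In the Plcg2 window those letters do not occur. It holds CACGTG at 20 bases, a motif in 6.02% of windows, and GGGCGG at 54 and 37 bases, a motif in 32.7% of windows. Among the members' windows only that of Plcb2 held GGAAGT. Plcb3, whose highest mean was also in microglia-like nuclei, had 0 matches. No window of a member held TATAAA, which 12.4% of windows hold. These are matches of letters on either strand, described without reference to binding. A RefSeq start was found for 8 of the 9 members. Plcl2 had no entry.

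Nuclei were grouped into classes by clustering with all 18 phospholipase C genes left out, and classes were named from marker genes. The libraries held 9269 to 13783 barcodes and 53326947 to 72288942 UMIs (counted RNA molecules), and 60085 nuclei remained after filters and removal of called doublets. Of these, 55962 lay in named clusters and 4123 did not. There were 11 classes with at least 20 nuclei in every library, which could be tested. Endothelial-like nuclei (17 to 140 a library), T cell-like nuclei (6 to 15) and nuclei with olfactory ensheathing glia markers (0 to 42) are given as values only. Despite the NeuN sort, 1513 nuclei carried markers of excitatory and 2097 of inhibitory neurons. The summed microglia markers stood at 15441 to 18505 CPM (UMIs of the gene scaled to a common total for the class in each library, the usual counts-per-million unit) in microglia-like nuclei and at 149 to 248 in oligodendrocyte-like nuclei. Pairs of libraries shared 20 to 71 barcodes, at most 0.751%, and no shared barcode had an identical profile. The library 5xFAD replicate 2 stood apart. It held the most barcodes, the lowest median of UMIs (3842, against 4377 to 4972), and 573 of the 802 nuclei of a microglia-like sub-cluster led by non-coding transcripts. Those were 47.4% of its own microglia-like nuclei, against 0.147% to 14.1% in the other 5 libraries.

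Plcg2 was, in these nuclei, a gene of microglia and macrophages. Levels are CPM of the class in a library, given as mean ± SD of 6 libraries, and they compare 1 gene between classes, not genes with each other. In microglia-like nuclei Plcg2 had 407, 436 and 494 CPM in the lowest, median and highest library (443 ± 34.0). Border macrophage-like nuclei, the macrophages of brain membranes and vessels, had 167, 201 and 298 CPM (218 ± 51.4). Every microglial value lay above every macrophage value, and the difference was 1.05 ± 0.33 on the log2 scale (SD of paired differences, exact sign-flip permutation p = 0.03125, two-sided, the smallest that 6 libraries allow). The other 9 tested classes had means between 2.08 and 13.05 CPM, so the microglial mean was 213 times the lowest, that of an oligodendrocyte cluster described below. Of all Plcg2 UMIs in named nuclei, 89.7% lay in microglia-like nuclei, which were 13.4% of the named nuclei.

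A share of nuclei with a UMI shows the same contrast. At least 1 Plcg2 UMI was found in 73.8% of microglia-like nuclei (median depth 3537 UMIs) and in 0.798% of oligodendrocyte-like nuclei (median 3820 UMIs). Oligodendrocytes are a class that should lack the gene, so the latter share is read as background. With each nucleus thinned to 1000 UMIs, the shares were 34.5% and 0.211%. Microglia markers themselves were counted in other classes, with summed levels of 149 to 248 CPM in oligodendrocyte-like and 1589 to 2537 CPM in astrocyte-like nuclei. Plcg2 can be set against them. Whether those classes made some of the markers themselves was not tested, so the ratio level is not a measure of background. If Plcg2 had stood there in its microglial ratio to 15 microglia markers, its level would have been 10.7 CPM in OPC-like nuclei, where 4.32 ± 0.69 was measured, and 52.9 CPM in astrocyte-like nuclei, where 6.04 ± 1.81 was measured. The measured level exceeded that ratio level in all 6 libraries in 1 class, the endothelial-like nuclei, with 51.6 ± 28.4 CPM against 22.3.

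Plcg1, the broadly used gamma enzyme, was found in every class within a narrow span. Its highest tested mean was 75.6 ± 7.23 CPM in astrocyte-like nuclei and its lowest 23.2 ± 8.06 CPM in border macrophage-like nuclei, a ratio of 3.25. Endothelial-like nuclei, not tested, had 115 CPM. Astrocyte-like nuclei ranged from 66.7 to 87.0 CPM and microglia-like nuclei from 49.2 to 79.3 CPM, so the leading 2 classes overlapped (exact sign-flip permutation p = 0.0625). Microglia-like nuclei were above border macrophage-like nuclei in 6 of 6 libraries, by 1.42 ± 0.75 on the log2 scale.

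**Figure D1:**
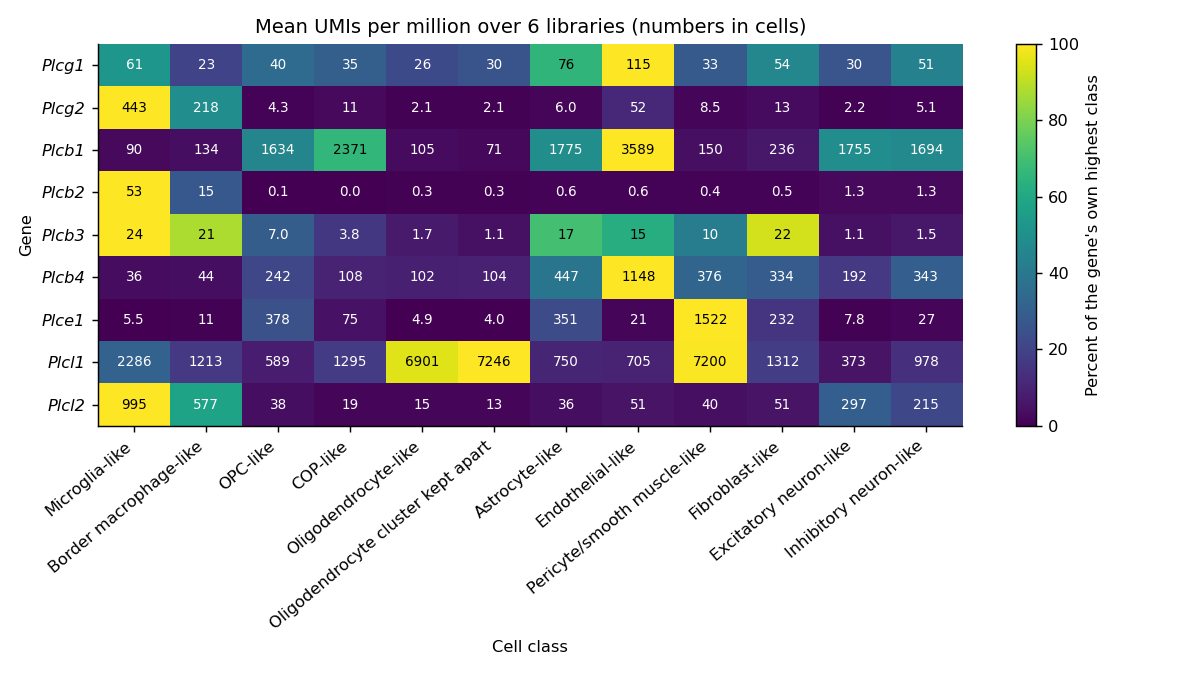
Mean level of the 9 genes (rows) in 12 classes of nuclei (columns), in CPM over 6 libraries, printed in each cell. Colour gives the percent of the gene's own highest class, so colours compare classes within a row; Plcg2, Plcb2 and Plcl2 peak in microglia-like nuclei.

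The beta enzymes were spread over different classes. Plcb1, a Gq-coupled isoform abundant in forebrain neurons, was high in 5 tested classes and low in 6. It had 2161, 2299 and 2766 CPM (lowest, median, highest library) in committed oligodendrocyte precursors (COP-like nuclei), the stage between oligodendrocyte precursors (OPC) and oligodendrocytes. Its means were 1775 ± 133 CPM in astrocyte-like, 1755 ± 88.8 in excitatory neuron-like, 1694 ± 281 in inhibitory neuron-like and 1634 ± 69.1 in OPC-like nuclei. Those 4 neighbours in the order did not differ beyond their spread (exact permutation p from 0.5 to 0.84375). The astrocyte and inhibitory means join unlike clusters. With libraries pooled, Plcb1 ran from 741 to 1958 CPM over the astrocyte clusters and from 595 to 2873 CPM over the inhibitory clusters. Below a gap of 2.82 ± 0.33 on the log2 scale came fibroblast-like nuclei with 236 ± 53.2 CPM, and the lowest mean was 71.0 CPM. Endothelial-like nuclei, not tested, had 3589 ± 483 CPM, above every tested class.

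Plcb2, the beta enzyme best known from blood cells and taste cells, followed the same classes as Plcg2. Microglia-like nuclei had 42.4, 55.3 and 59.8 CPM (53.3 ± 6.92), and border macrophage-like nuclei 0, 10.8 and 35.5 CPM (14.7 ± 13.7). The ranges did not overlap, the log2 difference was 2.51 ± 1.75, and 90.3% of its UMIs lay in microglia-like nuclei. COP-like nuclei had no Plcb2 UMI in any library. Excitatory and inhibitory neuron-like nuclei had 1.32 ± 0.56 and 1.32 ± 0.86 CPM, which exceeded the level set by the microglia marker ratio in 6 and 5 of 6 libraries.

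Plcb3, a widely found beta enzyme, was low throughout. It had 23.7 ± 2.36 CPM in microglia-like, 22.1 ± 8.88 in fibroblast-like and 20.8 ± 9.59 in border macrophage-like nuclei, and these 3 did not differ beyond their spread (exact permutation p = 0.46875 and 0.75). Its lowest means were 1.05 to 1.67 CPM, in the oligodendrocyte and neuron-like classes. Plcb4, the isoform of cerebellar and thalamic neurons, had its highest tested mean in astrocyte-like nuclei, 447 ± 52.5 CPM, with 374, 450 and 509 CPM in the lowest, median and highest library. Pericyte and smooth muscle-like nuclei had 281 to 453 CPM, a range that overlapped, though astrocyte-like nuclei were higher in 6 of 6 libraries. The lowest means were 43.8 ± 21.9 CPM in border macrophage-like and 36.5 ± 8.29 CPM in microglia-like nuclei. Endothelial-like nuclei had 1148 ± 153 CPM.

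Plce1, which also activates Rap and binds Ras, had its highest tested mean in pericyte and smooth muscle-like nuclei. Pericyte and smooth muscle-like nuclei had 1370, 1520 and 1683 CPM (1522 ± 107), and OPC-like nuclei, next in the order, 287 to 500 CPM (378 ± 72.8). The ranges were far apart, with a log2 difference of 2.03 ± 0.32. Astrocyte-like nuclei had 351 ± 70.1 CPM, which did not differ from OPC-like nuclei beyond the spread (exact permutation p = 0.34375), and fibroblast-like nuclei 232 ± 11.1. Both oligodendrocyte classes and microglia-like nuclei had 3.97 to 5.49 CPM. Endothelial-like nuclei, not tested, had 20.5 CPM with the libraries pooled. The few nuclei with olfactory ensheathing glia markers had 1503 to 3481 CPM in the 5 libraries that held any.

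Of the PLC-like genes, Plcl1, whose protein binds IP3 and the GABA receptor trafficking machinery, was high in oligodendrocyte-like and in pericyte and smooth muscle-like nuclei. Oligodendrocyte-like nuclei had 6075, 6820 and 7722 CPM (6901 ± 581), and pericyte and smooth muscle-like nuclei 5819, 7370 and 8071 CPM (7200 ± 857). A further oligodendrocyte cluster, kept apart because Enpp6, a marker of newly formed oligodendrocytes, was among its first 10 genes, had 7246 ± 638 CPM. Its stage was not tested, and 1 gene does not settle it. In a finer clustering, at resolution 2, the clusters kept apart this way had 12 of 12 and 11 of 12 oligodendrocyte markers raised. Pericyte and smooth muscle-like nuclei did not differ from either oligodendrocyte class beyond their spread (exact permutation p = 0.75 and 0.40625). The 2 oligodendrocyte classes are compared with each other below. Microglia-like nuclei came next with 2286 ± 219 CPM, lower in 6 of 6 libraries by 1.59 ± 0.09 on the log2 scale. Excitatory neuron-like nuclei were lowest with 373 ± 44.2 CPM. Endothelial-like nuclei, not tested, had 641 CPM with the libraries pooled. Because Plcl1 was so abundant in oligodendrocytes, the class with most nuclei, its level elsewhere was set against 12 oligodendrocyte markers. Whether the other classes made some of these markers themselves was not tested. The measured level was 7.51 times the ratio level in microglia-like nuclei, 8.89 times in pericyte and smooth muscle-like nuclei, 2.65 times in OPC-like nuclei and 0.521 times in COP-like nuclei.

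Plcl2, known to restrain B cell receptor signalling, was again led by microglia-like nuclei, with 891, 986 and 1131 CPM (995 ± 81.4). Border macrophage-like nuclei had 577 ± 90.4 CPM, excitatory neuron-like nuclei 297 ± 29.9 and inhibitory neuron-like nuclei 215 ± 15.6. Each of these 4 steps down, the last one to fibroblast-like nuclei at 51.2 ± 18.5 CPM, was seen in 6 of 6 libraries. Microglia-like nuclei held 55.0% of its UMIs. The neuronal level was 35.8 times (excitatory) and 17.0 times (inhibitory) the level set by the microglia marker ratio. T cell-like nuclei, 58 in all, had 423 CPM.

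Over the 9 genes, 90 pairs of neighbouring classes in the order of means were compared. In 28 of them the higher class was higher in 6 of 6 libraries, and in 19 the ranges did not overlap. Over all genes handled the same way, 18.6% of 134830 neighbour pairs were higher in every library. No pair passed the Benjamini-Hochberg adjustment over the 90 (smallest adjusted exact permutation p = 0.1004), and 6 libraries cannot give a p under 0.03125.

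The oligodendrocyte line held the widest contrasts between related classes. From OPC-like to COP-like nuclei, Plcb1 was higher in 6 of 6 libraries (1634 and 2371 CPM, log2 difference 0.53 ± 0.18) and Plcl1 likewise (589 and 1295 CPM, 1.13 ± 0.39). Plce1 was lower in 6 of 6 libraries (378 and 75.2 CPM, -2.33 ± 0.33), as were Plcb4 (242 and 108 CPM, -1.17 ± 0.30) and Plcl2 (38.1 and 18.9 CPM, -1.20 ± 0.90). Of 8 members tested, 5 thus held 1 direction throughout, while 38.9% of all genes did.

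From COP-like to oligodendrocyte-like nuclei Plcb1 dropped out of the high group. Every COP-like library had at least 2161 CPM and every oligodendrocyte-like library at most 113 CPM, a log2 difference of -4.48 ± 0.16. Plce1 stood at 46.5 to 97.6 CPM and then 3.31 to 6.61 CPM (-3.70 ± 0.41), again without overlap. Plcl1 went the other way, with 914 to 1525 CPM and then 6075 to 7722 CPM (2.43 ± 0.29). Plcg2 was also lower in 6 of 6 libraries (10.7 ± 9.55 and 2.13 ± 0.90 CPM), with a wide spread among COP-like nuclei, where 1 library held as few as 37 nuclei. The Plcg2 signal of oligodendrocyte-like nuclei is the one read as background above. Of 8 members tested 4 held 1 direction, against 43.5% of all genes.

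The oligodendrocyte cluster kept apart differed from the main class by small steps. Plcb1 was lower in 6 of 6 libraries (71.0 ± 3.29 and 105 ± 6.88 CPM, log2 difference -0.56 ± 0.06, ranges apart) and Plcl2 lower by a smaller step (-0.24 ± 0.12). Plcg1 (0.21 ± 0.12) and Plcl1 (0.07 ± 0.02) were higher in 6 of 6 libraries with overlapping ranges. Those 4 of 8 members compare with 30.9% of all genes.

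**Figure D2:**
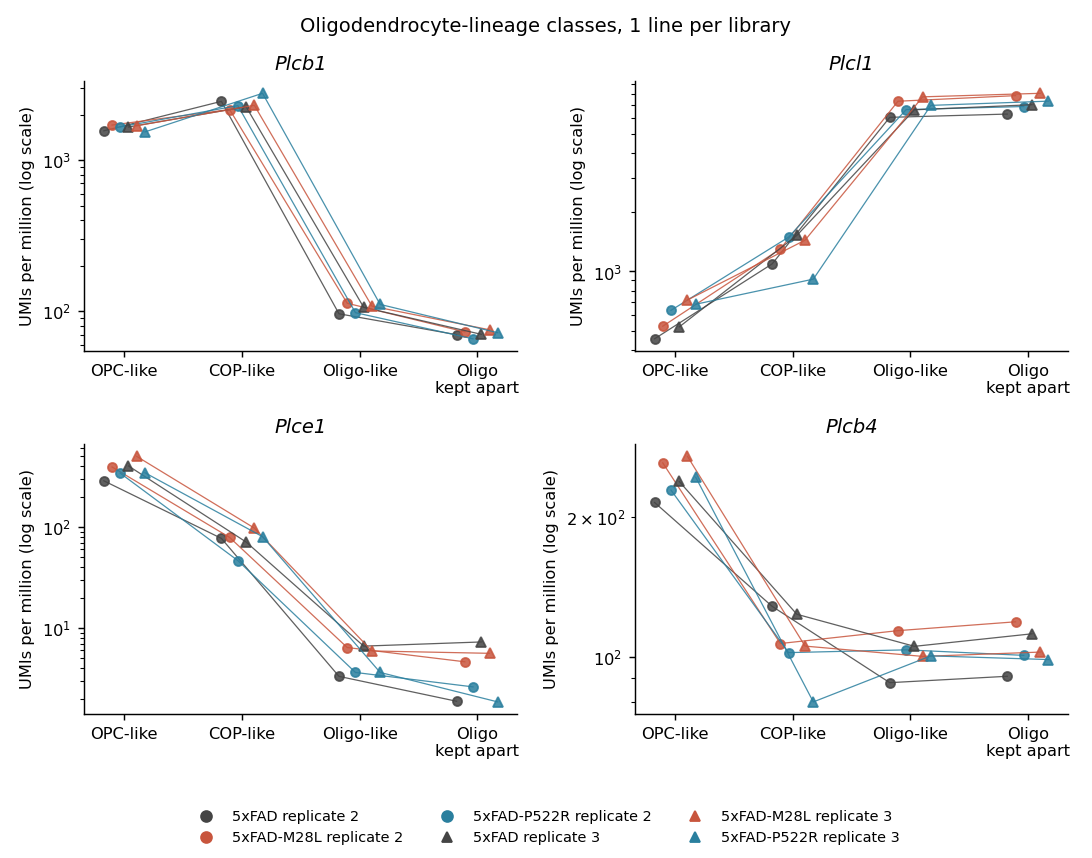
Plcb1, Plcl1, Plce1 and Plcb4 in 4 classes of the oligodendrocyte line, in CPM on a log axis; each line is 1 library, coloured by group, circles for replicate 2 and triangles for replicate 3. All 6 lines rise for Plcb1 and Plcl1 from OPC-like to COP-like nuclei and part at the next step.

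Microglia-like and border macrophage-like nuclei differed in 4 of the 8 members tested, Plcg1, Plcg2, Plcb2 and Plcl2, each higher in microglia-like nuclei in 6 of 6 libraries, and 27.2% of all genes held 1 direction. Plcl1 was higher in 5 of 6 (1.07 ± 0.74). Between neurons, excitatory neuron-like nuclei had less Plcl1 (373 and 978 CPM, -1.38 ± 0.15), Plcb4 (192 and 343 CPM, -0.82 ± 0.28), Plce1 (7.79 and 27.2 CPM, -1.75 ± 0.51) and Plcg1 (30.3 and 50.9 CPM, -0.72 ± 0.27) in 6 of 6 libraries. Plcl2 was higher there in 6 of 6 (297 and 215 CPM, 0.46 ± 0.14). These are 5 of 7 members tested, while 55.5% of all genes held 1 direction between the neuron classes. They are differences of class averages, and the inhibitory clusters were unlike each other. With libraries pooled, Plcl1 ran from 459 to 2537 CPM over those clusters, beside 400 in the largest excitatory cluster. Set out the same way, Plce1 ran from 2.74 to 127 CPM beside 9.50, and Plcg1 from 34.3 to 84.9 beside 30.7. Plcb4 ran from 209 to 681 CPM beside 168, and Plcl2 from 107 to 436 beside 265. Over these 5 pairs of classes 45 exact permutation tests were run, and none passed the adjustment (smallest adjusted p 0.0639).

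Several members share their stretch of genome with other genes, which bears on the counts. Plcb1 (chr2:134786067-135475258) overlaps 4930545L23Rik and 9630028H03Rik, and Plcb4 (chr2:135659011-136014593) holds Gm14211, all on the opposite strand. Plcb4 also holds Gm14210 on the opposite strand and Gm14209 on the same strand, both in the matrices. Plcg1 overlaps Zhx3 and Gm27206, and Plcb3 overlaps Ppp1r14b, each on the opposite strand. By the likeness of mean levels over the 11 classes (Pearson r of log2 CPM, a description over classes that share libraries), the genes nearest to Plcb1 were 9630028H03Rik (r = 0.996) and 4930545L23Rik (0.986), then Nrcam (0.978). The gene nearest to Plcb4 was Gm14211 (0.985). Reads of opposite-strand partners cannot be told apart from reads of the members where strand was not used in counting, which the sources do not state. For Gm14209 the strand would not separate them. In the 11 classes 9630028H03Rik had 1.998% to 4.25% of the Plcb1 level.

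For the remaining members the nearest genes lay elsewhere in the genome. Plcg2 was most like Mknk1 (r = 0.986), Lpxn (0.983) and Erp29 (0.981), and Plcb2 like Bin2 (0.986), A430093F15Rik (0.986) and Selplg (0.986), all highest in microglia-like nuclei. Plcl2 was most like Trpm2 (0.987), Gm42477 (0.979) and Cnnm4 (0.977). Plcl1 was most like Akr1b3 (0.984), Slc12a2 (0.952) and Crnkl1 (0.937), and Plce1 like Plscr4 (0.963), Il17rd (0.960) and Unc13c (0.952). Plcb4 was further like Smarcd3 (0.982) and Tbc1d19 (0.974), Plcb3 like Tnfrsf1a (0.975), Shisa5 (0.963) and Swap70 (0.963), and Plcg1 like Ldhb (0.936), Mtor (0.929) and Sf3a1 (0.920). Among the members, Plcg2 and Plcb2 were the most alike (r = 0.909), then Plcb2 and Plcl2 (0.861). Plcb1 and Plcl1 were the most opposed (-0.789).

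Within microglia-like nuclei, 6 of the 9 genes were lower in the disease-associated-like state than in the homeostatic-like state in every library. The first state, 1039 nuclei, was named from a list that holds Lpl, Cst7 and Itgax, with 20 of 21 markers higher than in other microglia-like nuclei. The second, 2479 nuclei, rested on 4 of 12 homeostatic markers, so its name is the weaker of the pair. Plcg2 had 347 to 435 CPM (385 ± 37.3) in disease-associated-like nuclei and 443 to 544 CPM (493 ± 41.3) in homeostatic-like nuclei. The ranges did not overlap, with a log2 difference of -0.36 ± 0.15 (exact sign-flip permutation p = 0.03125, adjusted p = 0.0703 over 27 tests, the smallest that was reached).

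The widest step was that of Plcg1, with 26.7 to 56.4 CPM against 63.7 to 102 CPM (-1.06 ± 0.16, no overlap). Plcl2 had 738 to 818 CPM against 1113 to 1236 CPM (-0.62 ± 0.08), again with no overlap. Plcl1 had 1860 ± 240 and 2440 ± 216 CPM (-0.40 ± 0.07), and its ranges of 1613 to 2160 and 2191 to 2758 CPM did not overlap. Plcb2 (39.0 ± 12.9 and 62.6 ± 10.1 CPM, -0.73 ± 0.47) and Plcb3 (18.2 ± 4.23 and 25.5 ± 4.90 CPM, -0.47 ± 0.44) were lower in 6 of 6 libraries with overlapping ranges. Plcb1, Plcb4 and Plce1 held no common direction.

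Of 8 members above the count limit, 6 were lower in every library, while 13.5% of 9667 genes were. The members' median log2 difference was -0.44 and that of all genes -0.05. None passed the adjustment. Without 5xFAD replicate 2 the Plcg2 difference was -0.41, in the same direction in the other 5 libraries. Against the same homeostatic-like nuclei, the 577 interferon-like nuclei had less Plcg1 (-0.53 ± 0.42), Plcl1 (-0.22 ± 0.16) and Plcl2 (-0.21 ± 0.15) in 6 of 6 libraries, which is 3 of 8 members, where 7.74% of all genes were lower in every library. Plcg2 there had 448 ± 53.1 CPM and was lower in 5 of 6. In the 2537 nuclei of sub-cluster 0, which could not be named, Plcg1, Plcg2 (420 ± 56.9 CPM, -0.24 ± 0.14) and Plcl2 (865 ± 38.6 CPM, -0.44 ± 0.09) were lower in 6 of 6, again 3 of 8 members, against 10.9% of all genes. The 3 comparisons share the homeostatic-like nuclei. The 38 cycling-like nuclei, 1 to 14 a library, were not tested.

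**Figure D3:**
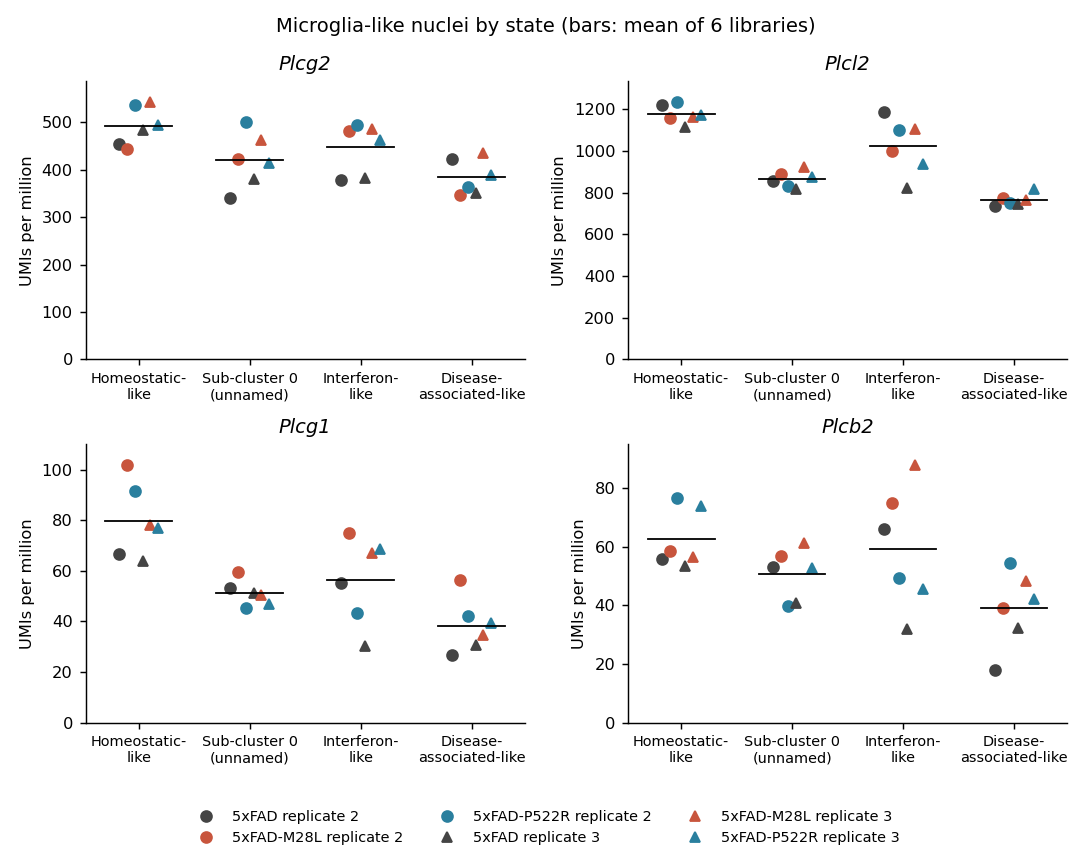
Plcg2, Plcl2, Plcg1 and Plcb2 in 4 sub-clusters of microglia-like nuclei, in CPM; each point is 1 library, coloured by group, and the bar is the mean of 6. Disease-associated-like points of Plcg2, Plcl2 and Plcg1 all lie below the homeostatic-like points.

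Over the 4 sub-clusters and 6 libraries, 24 points that share libraries, the genes most like Plcg2 among 11982 were Acvr2b (Pearson r = 0.868), Ppcdc (0.826) and Lifr (0.810). Microglia-like nuclei were also split by sex, into those with Xist (female) and those with Y-linked transcripts (male). No member was higher in 1 sex in all 6 libraries, and 3.95% of all genes were. Plcg2 had 468 ± 46.6 CPM in Xist-positive and 430 ± 45.2 CPM in Y-positive nuclei, higher in 4 of 6 libraries (log2 difference 0.12 ± 0.16, exact sign-flip permutation p = 0.125). Of the nuclei that could be called, 46.6%, 47.8% and 75.6% were Xist-positive in replicate 2 of 5xFAD, M28L and P522R, and 68.9%, 62.2% and 73.3% in replicate 3.

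The design asks whether the alleles went with other levels of Plcg2 and its relatives. In microglia-like nuclei Plcg2 had 415 and 407 CPM in 5xFAD (replicates 2 and 3), 436 and 494 CPM in 5xFAD-M28L, and 474 and 435 CPM in 5xFAD-P522R. Both libraries of each allele lay above both 5xFAD libraries, and the alleles overlapped each other. With 2 libraries a group such an order can arise from their spread alone, and its share over all genes was not counted. The log2 fold change was 0.21 ± 0.096 (SE) for M28L minus 5xFAD (edgeR adjusted p = 0.803), 0.13 ± 0.096 for P522R minus 5xFAD (adjusted p = 0.689) and -0.07 ± 0.096 for P522R minus M28L (adjusted p = 0.892). None passed. Without 5xFAD replicate 2 the same values were 0.22, 0.15 and -0.07. Without M28L replicate 3 the first value was 0.10 and the last turned to 0.03. Leaving out the sub-cluster that 5xFAD replicate 2 mostly held, the first 2 values were 0.22 and 0.14.

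No member passed in microglia-like nuclei in any of the 3 contrasts by edgeR or by DESeq2, and 4, 1 and 4 of the 9 had an unadjusted edgeR p under 0.05, as did 6.12%, 9.31% and 7.98% of all genes. Over all genes there edgeR called 0.00733%, 0.022% and 0.022% of 13636 genes (M28L minus 5xFAD, P522R minus 5xFAD, P522R minus M28L). Some members had groups whose libraries did not overlap. With 2 libraries a group this can arise from the spread between libraries alone, and its share over all genes was not counted. Plcb2 had 47.5 and 42.4 CPM in 5xFAD, 59.3 and 59.8 in M28L, and 54.3 and 56.3 in P522R, so both alleles lay above 5xFAD (0.44 ± 0.12 and 0.30 ± 0.12, adjusted p = 0.803 and 0.526). Plcg1 had 58.8 and 49.2 CPM in 5xFAD against 79.3 and 62.3 in M28L (0.42 ± 0.15, adjusted p = 0.803).

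Plcl1 had 2418 and 2660 CPM in M28L, 2045 and 2190 in P522R and 2209 and 2191 in 5xFAD. M28L was the highest group (P522R minus M28L -0.30 ± 0.089, adjusted p = 0.434). That contrast passed without 5xFAD replicate 2 (adjusted p = 0.0216) and without 5xFAD replicate 3 (0.0252), libraries that enter it through the shared estimate of spread. Plcb4 (42.2 and 48.9 CPM in M28L, 27.2 and 33.6 in P522R, -0.61 ± 0.18) and Plce1 (6.36 and 10.5 CPM, 3.62 and 2.80, -1.47 ± 0.40) were likewise lower in P522R than in M28L, with adjusted p = 0.442 and 0.392. Both are genes of other classes, and the summed astrocyte markers in microglia-like nuclei were also lower in P522R (520 and 524 CPM) than in M28L (792 and 852) and 5xFAD (752 and 763). Oligodendrocyte markers were 828, 1013 (M28L), 965, 1073 (P522R) and 717, 848 CPM (5xFAD). The part of these markers in the results was not tested.

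The states that held less Plcg2 were unequally filled. Disease-associated-like nuclei made up 24.6% and 24.5% of microglia-like nuclei in P522R, 4.35% and 6.66% in M28L, and 5.29% and 18.7% in 5xFAD. Tests were therefore also made within each sub-cluster, where 32 of 36 pairs of member and sub-cluster could be tested. None was called by edgeR or DESeq2 in the 3 contrasts, in the order above, and 9, 4 and 7 had an unadjusted edgeR p under 0.05, as did 7.96%, 6.79% and 7.44% of all tests. edgeR called 0.377%, 0.0944% and 0.313% of all genes there. With the replicate number as a block, 1 pair was called, Plcl1 in homeostatic-like nuclei for M28L minus 5xFAD (0.26 ± 0.063, adjusted p = 0.0449), where the blocked fits called 1.07%, 0.677% and 0.782% of all genes. Plcg2 in sub-cluster 0 had 341 and 381 CPM in 5xFAD, 423 and 463 in M28L, and 501 and 414 in P522R, with both alleles above 5xFAD (0.29 ± 0.11 and 0.30 ± 0.11, adjusted p = 0.353 and 0.570). In homeostatic-like nuclei it had 455 and 485, 443 and 544, and 537 and 494 CPM in the same order, and 5xFAD and M28L overlapped (0.08 ± 0.10). In interferon-like nuclei it had 378 and 383, 482 and 486, and 494 and 463 CPM, with both alleles above 5xFAD (0.35 ± 0.17 and 0.30 ± 0.18, adjusted p = 0.676 and 0.734) and 44 to 134 nuclei a library. In disease-associated-like nuclei the values were 422 and 351, 347 and 435, and 364 and 389 CPM, and all groups overlapped. The limit of 2 libraries a group holds for the orders within sub-clusters too.

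**Figure D4:**
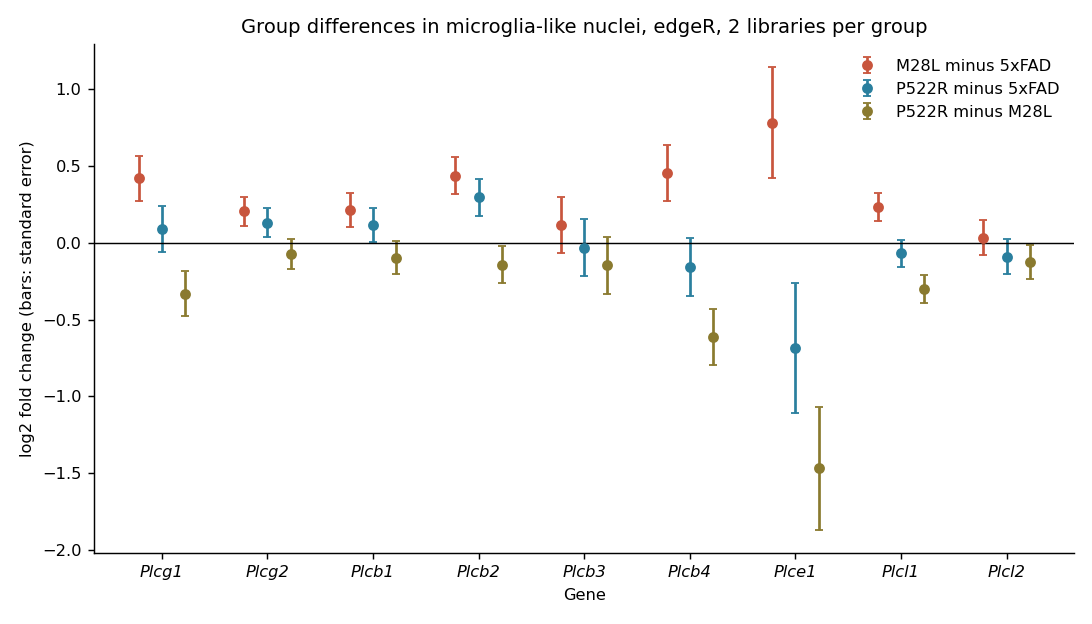
Log2 fold changes of the 9 genes in microglia-like nuclei for 3 contrasts between groups, with standard errors (edgeR, 2 libraries per group). The points of P522R minus M28L lie at or below -0.07 for each gene, and no point passed the adjusted threshold.

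Over all 11 classes, 81 of the 99 pairs of member and class had enough counts for a test. Without a replicate term edgeR and DESeq2 called none of them in any contrast, and 12, 8 and 15 had an unadjusted edgeR p under 0.05 (M28L minus 5xFAD, P522R minus 5xFAD, P522R minus M28L). These are 14.8%, 9.88% and 18.5% of the 81, beside 7.999%, 9.22% and 5.99% of all tests. The smallest adjusted p-values were 0.277, 0.366 and 0.392. Over all genes and classes edgeR called 0.00156%, 0.0156% and 0.0125% of 128171 tests, so calls were rare for any gene. With the replicate number as a block in the model, calls over all genes rose to 2.28%, 2.2% and 0.479%, and 5, 1 and 2 pairs of member and class were among them. These lay in OPC-like nuclei and the 2 oligodendrocyte classes, where same-numbered libraries deviated together. Members' median log2 differences were 0.12, 0.03 and -0.11, and the 3 contrasts share groups.

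Plcl1 was the member with the smallest adjusted p against 5xFAD. In oligodendrocyte-like nuclei it had 6075 and 6635 CPM in 5xFAD, 7335 and 7722 in M28L and 6651 and 6988 in P522R. Both M28L libraries were above both 5xFAD libraries, with the same limit of 2 libraries a group (0.27 ± 0.079, edgeR adjusted p = 0.330). With the replicate block the difference was 0.27 ± 0.049 (adjusted p = 0.00637). The cluster kept apart gave 6313 and 7044, 7832 and 8049, and 6896 and 7344 CPM in the same order (0.27 ± 0.072 for M28L minus 5xFAD, adjusted p = 0.277), and the difference passed without 5xFAD replicate 3 (0.36, adjusted p = 0.0284). With the block it also passed (0.27 ± 0.048, adjusted p = 0.00132), as did P522R minus M28L (-0.20 ± 0.048, adjusted p = 0.0361). The blocked fits for M28L minus 5xFAD called 6.42% of all genes in the main class and 4.63% in the cluster kept apart.

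In OPC-like nuclei Plcl1 had 455 and 523 CPM in 5xFAD, 527 and 716 in M28L and 635 and 681 in P522R. Both alleles lay above 5xFAD, M28L by a narrow margin (0.34 ± 0.13, adjusted p = 0.381, and 0.38 ± 0.13, adjusted p = 0.366). Both differences passed with the replicate block (0.34 ± 0.066, adjusted p = 0.00214, and 0.39 ± 0.066, adjusted p = 0.000361), in fits that called 6.09% and 5.88% of all genes. The M28L difference was 0.13 without M28L replicate 3 and 0.55 without M28L replicate 2. Summed oligodendrocyte markers in the same nuclei were 523 and 430 CPM in 5xFAD, 502 and 823 in M28L and 865 and 835 in P522R. Both P522R libraries were above both 5xFAD libraries in these markers as in Plcl1. Between replicates of a group the library with more Plcl1 had more of the markers in M28L and less in 5xFAD and P522R. The part of these markers was not tested.

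**Figure D5:**
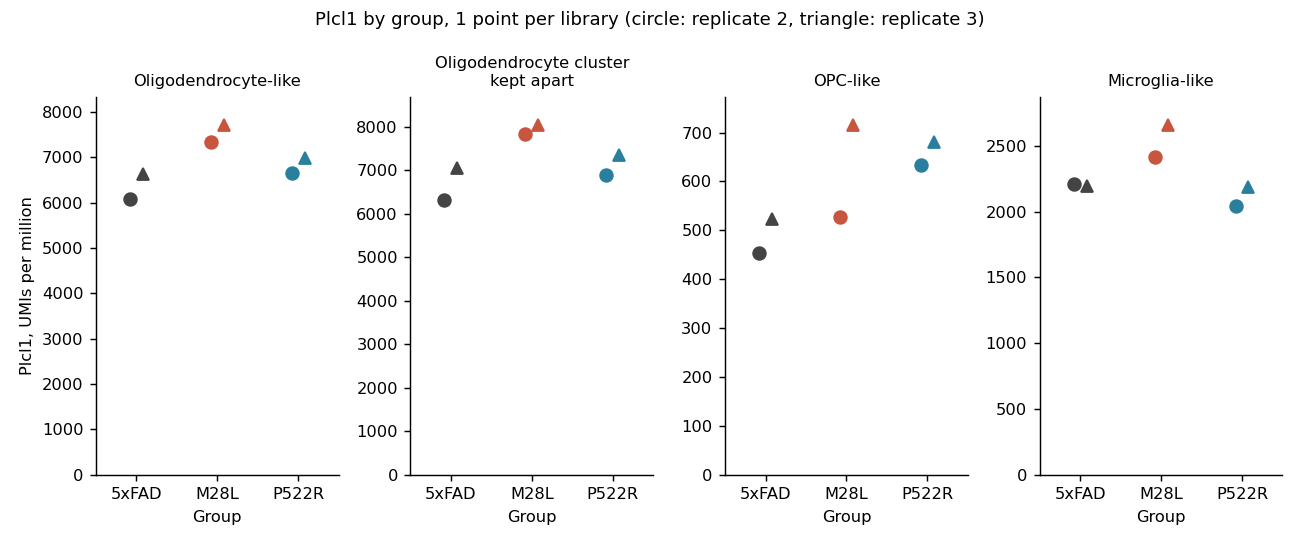
Plcl1 in 4 classes of nuclei by group, in CPM with the axis from 0; each point is 1 library, circles for replicate 2 and triangles for replicate 3. M28L points lie above 5xFAD points in each of the 4 panels.

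Other members had groups that did not overlap in single classes, with the same limit of 2 libraries a group. Plcl2 in excitatory neuron-like nuclei was 317 and 348 CPM in 5xFAD, 271 and 283 in M28L, and 281 and 280 in P522R, so both alleles were lower (-0.29 ± 0.078 and -0.30 ± 0.077, adjusted p = 0.344 and 0.460). Plcb1 in pericyte and smooth muscle-like nuclei was 249.3 and 103 CPM in 5xFAD, 132 and 245 in M28L, and 84.9 and 83.3 in P522R. P522R was lowest (-1.12 ± 0.41 against 5xFAD, adjusted p = 0.480), but 1 library decided the size of the difference, which was -0.36 without 5xFAD replicate 2 and passed without 5xFAD replicate 3 (-1.63, adjusted p = 0.00417). Plcb4 in astrocyte-like nuclei was 509 and 496 CPM in M28L and 444 and 374 in P522R (-0.39 ± 0.12, adjusted p = 0.561). In OPC-like nuclei Plce1 was 287 and 402 CPM in 5xFAD, 393 and 500 in M28L, and 341 and 344 in P522R, with M28L above P522R (-0.43 ± 0.15 for P522R minus M28L, adjusted p = 0.863). With the replicate block that difference passed (-0.41 ± 0.076, adjusted p = 0.0124), as did Plce1 for M28L minus 5xFAD (0.38 ± 0.076, adjusted p = 0.00232), whose groups overlapped. Plcb4 in the same nuclei was 215 and 238 CPM in 5xFAD, 261 and 269 in M28L, and 228 and 243 in P522R. Its M28L minus 5xFAD difference was 0.23 ± 0.076 (adjusted p = 0.352) and passed with the block (0.23 ± 0.065, adjusted p = 0.0324).

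The machinery around the enzymes was read from 6 lists in microglia-like nuclei. The genes named from each list were picked by the smallest unadjusted edgeR p in these same data. No gene of any list passed in any contrast by edgeR without a replicate term, and with the replicate block 2 genes did, Dgki and Dgkz. Over all genes there, 6.12% (M28L minus 5xFAD), 9.31% (P522R minus 5xFAD) and 7.98% (P522R minus M28L) had an unadjusted edgeR p under 0.05. The receptors and kinases upstream of the gamma enzymes, of which 26 of 26 were tested, had medians of 0.11, -0.04 and -0.11 in the 3 contrasts (M28L minus 5xFAD, P522R minus 5xFAD, P522R minus M28L), where all genes had medians of -0.00, -0.00 and -0.01, and 3, 4 and 7 had an unadjusted p under 0.05. Inpp5d, the lipid phosphatase SHIP1, had 2501 and 2607 CPM in 5xFAD, 2872 and 3004 in M28L, and 2440 and 2419 in P522R, with M28L highest (P522R minus M28L -0.31 ± 0.079, adjusted p = 0.351). The Fc receptor genes Fcgr3 (-0.45 ± 0.12) and Fcgr1 (-0.39 ± 0.12) were placed the same way in that contrast. The kinase gene Lyn was lower in P522R (1348 and 1346 CPM) than in 5xFAD (1715 and 1610 CPM, -0.32 ± 0.084, adjusted p = 0.484).

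Of the diacylglycerol effectors and kinases 18 of 19 were tested, and 15 and 14 of them had a value above 0 against 5xFAD in M28L and P522R (medians 0.13, 0.10 and -0.00), with 3, 5 and 4 under an unadjusted p of 0.05. The share of all genes above 0 was not counted, and their medians against 5xFAD were -0.00 in both alleles. Dgki, a diacylglycerol kinase, had 50.1 and 66.1 CPM in 5xFAD, 77.5 and 98.3 in M28L, and 92.1 and 98.0 in P522R, above 5xFAD in both alleles (0.61 ± 0.16 and 0.69 ± 0.16, adjusted p = 0.803 and 0.464; with the replicate block adjusted p = 0.0396 and 0.0114). Prkch, a protein kinase C, had 0.25 ± 0.094 and 0.40 ± 0.094. Rasgrp3, a Ras activator that binds diacylglycerol, had 0.37 ± 0.11 and Dgkz 0.59 ± 0.18 for P522R minus 5xFAD. With the block the Dgkz difference passed (0.62 ± 0.13, adjusted p = 0.0451), in fits that called 0.389%, 1.28% and 0.909% of all genes in microglia-like nuclei.

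Of the IP3 receptors and IP3 enzymes 9 of 9 were tested (medians 0.04, 0.16 and 0.10), with 2, 1 and 1 under an unadjusted p of 0.05. Itpr2, an IP3 receptor, had 706 and 686 CPM in M28L and 555 and 572 in P522R (-0.34 ± 0.090, adjusted p = 0.367). Inpp5a, which removes a phosphate from IP3, was higher in both alleles (0.34 ± 0.15 and 0.44 ± 0.15), and Itpkb (0.21 ± 0.12 for P522R minus 5xFAD) and Itpr3 (0.32 ± 0.22) differed by less. PIP2 synthesis genes (14 of 15 tested, medians 0.04, 0.04 and 0.02, with 1, 1 and 0 under an unadjusted p of 0.05) included Pip5k1c, a kinase that makes PIP2, with 0.29 ± 0.11 and 0.32 ± 0.11 against 5xFAD. Pip4k2b had 0.24 ± 0.11 and Pip4k2c 0.27 ± 0.24 for P522R minus 5xFAD, and Cds2 -0.18 ± 0.12 for M28L minus 5xFAD.

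Gq proteins and their receptors (14 of 21 tested, medians 0.01, 0.22 and 0.15, with 0, 0 and 2 under an unadjusted p of 0.05) held Chrm3, a muscarinic receptor, with 18.4 and 19.5 CPM in M28L and 26.9 and 34.1 in P522R (0.66 ± 0.24, adjusted p = 0.520). P2ry6, a UDP receptor of microglia, was 230 and 221 CPM in M28L and 191 and 197 in P522R (-0.25 ± 0.10). Lpar1 (0.53 ± 0.25 for P522R minus 5xFAD) and Htr2a (1.01 ± 0.53 for P522R minus M28L) rested on fewer than 11 CPM. Of the other 9 phospholipase C isoforms 5 were tested (medians 0.09, 0.19 and -0.26, with 0, 1 and 0 under an unadjusted p of 0.05). Plcd4, a delta enzyme, had 3.96 and 2.70 CPM in 5xFAD and 1.21 and 1.49 in P522R (-1.22 ± 0.47, adjusted p = 0.508), and Plcd1 0.19 ± 0.28. The atypical Plcxd3 (0.45 ± 0.33 for M28L minus 5xFAD) and Plcxd2 (0.20 ± 0.28) differed by little more than their error or less.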

How the data were processed

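The authors deposited 10x matrices of raw UMI counts for 6 libraries, made with Cell Ranger 6.1.2 (5.0.1 in P522R replicate 3, per the file headers) on mm10, per the submitters' processing notes. Whether intronic reads were counted is not given in the sources used here. The filters asked for 500 UMIs, 300 genes and no more than 5% mitochondrial UMIs, which 62651 nuclei met, and 2566 doublets were removed with Scrublet at a common score of 0.311, because its automatic threshold called under 0.5% of nuclei in 2 libraries. The remaining nuclei were clustered with scanpy 1.11.5 and leidenalg 0.10.2 (2000 variable genes, 30 components, 20 neighbours, resolution 1) without the phospholipase C genes. A cluster was named where 0.5 of a class's markers exceeded a log2 fold of 1 over the other nuclei. Microglia-like nuclei were sub-clustered at resolution 0.5, and 158 nuclei of a sub-cluster with oligodendrocyte markers were set apart after seeing the data.

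Counts were summed per class and library. Classes, states and sexes were compared within libraries by a two-sided exact sign-flip permutation test of log2(CPM + 1), and groups by edgeR 4.0.16 quasi-likelihood fits on all genes (minimum count 10, all 6 libraries in 1 fit), with Benjamini-Hochberg adjustment over the genes of a class. The labels give no shared animal, batch or day for a replicate number. Deviations of same-numbered libraries from their group means correlated over genes at -0.06 to 0.42 (median 0.19, 24 of 33 pairs of groups over 0.1). In 7 of 11 classes all 3 correlations were over 0.1 (astrocyte, border macrophage, excitatory neuron, microglia, OPC and both oligodendrocyte classes), so there the numbers were taken to pair the libraries, from the data and not the labels. The fits without a replicate term are reported first, and blocked values stand beside them where a call changed. The scripts were tested on simulated data. DESeq2 1.42.0, other filters and each library left out were tried as alternatives. Likeness used 13483 genes with at least 10 CPM in a class. Genes beyond the 9 members were named by rule: the 3 most alike per member, and the up to 4 of each pathway list with the smallest p in any contrast. The members and lists were chosen with earlier results of these data known.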

Additional observations from a re-analysis of the deposited data

How the results depend on the processing

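Over 35 results and 498 alternative values, 409 kept their direction and their side of the threshold. With no filter on low counts, 5, 1 and 5 pairs of member and class (3, 1 and 3 members) were called between groups over the 11 classes (M28L minus 5xFAD, P522R minus 5xFAD, P522R minus M28L), against 0 in each as reported. With only the 4 libraries compared, 1 was called for P522R minus M28L. Leaving out each library in turn gave 0 to 1 calls in each contrast: 5xFAD replicate 3 for Plcl1 in the oligodendrocyte cluster kept apart and Plcb1 in pericyte and smooth muscle-like nuclei, and 5xFAD replicate 2 or 3 for Plcl1 in microglia-like nuclei. With the replicate block, 5, 1 and 2 pairs (3, 1 and 2 members) were called over the classes, all in classes where the numbers were taken to pair the libraries, and 1 within the sub-clusters (M28L minus 5xFAD). The block changed no other call of a member, or of a pathway gene other than Dgki and Dgkz. The cause was not tested.

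The Plcg2 difference between P522R and M28L in microglia-like nuclei was -0.17 to 0.034 with each library left out, turning to 0.034 without M28L replicate 3, and was 0.061 in Y-positive nuclei alone. For M28L minus 5xFAD it was 0.10 to 0.31, and for P522R minus 5xFAD 0.09 to 0.18. Plcl1 in the oligodendrocyte cluster kept apart minus pericyte and smooth muscle-like nuclei turned to -0.050 with nuclei thinned to 1000 UMIs, and was -0.018 to 0.047 with each library left out, below 0 without replicate 2 of 5xFAD or of M28L. With 5 libraries the exact test cannot go below 0.0625, so the class and state differences are then given by size: Plcg2 in microglia-like minus border macrophage-like nuclei was 0.99 to 1.17, and in disease-associated-like minus homeostatic-like nuclei -0.41 to -0.32. The neighbour pairs in 1 direction numbered 29 to 32 with 5 libraries, a count that cannot fall below the 28 found with 6. At sub-cluster resolution 1 no homeostatic-like sub-cluster was named, so that comparison was not run there. The alternatives with doublets kept and with classes at resolution 2 were run for part of the results. Leaving out the microglia-like sub-cluster held mostly by 5xFAD replicate 2, and keeping the one with oligodendrocyte markers, were chosen after seeing the data. Depth limits Plcg2, Plcb2, Plcb3 and Plce1 where they stood under about 5 CPM, and the small classes.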

Other observations

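Transcripts that overlap the members' genes on the opposite strand took up more of the counts in some libraries than in others. 9630028H03Rik had 8.64% of the Plcb1 UMIs in 5xFAD replicate 2 and 1.75% to 3.86% in the other 5 libraries. 4930545L23Rik had 2.49% in that library and 0.516% to 1.19% elsewhere. Gm14211 had 8.07% of the Plcb4 UMIs there and 3.59% to 6.35% elsewhere, and Gm27206 had 3.88% of the Plcg1 UMIs and 0.912% to 2.30% elsewhere. Replicate 2 was above replicate 3 in 3 of 3 groups for Gm27206, 4930545L23Rik and 9630028H03Rik and in 2 of 3 for Gm14211. Each of these transcripts is an antisense or overlapping gene that is counted in the matrices as a gene of its own.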
